A study of Homo sapiens with 6 samples.

Results

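The genes described are the 7 members of 3 oncofetal families, HMGA1 and HMGA2, LIN28A and LIN28B, and IGF2BP1, IGF2BP2 and IGF2BP3. They were chosen by symbol from 22413 genes named on the array, and each was represented by 1 probe set. The samples were 3 arrays of SND1 knockdown cells and 3 arrays of vector control cells. The knockdown cells were a stable SKOV3 line holding the pLKO-shSND1-#2 hairpin against SND1, and the controls a stable SKOV3 line holding the empty pLKO-Vector. SKOV3 is an established human ovarian carcinoma line, and both lines were grown with 10% fetal bovine serum and no treatment. Each group was 1 stable line with 1 construct, and the labels do not say whether its arrays came from separate cultures. The p-values therefore cover the spread among these 6 arrays alone, and that spread may be technical.

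Oncofetal genes are active in the embryo, mostly silent in adult tissue and often switched on again in tumours. HMGA proteins bind the minor groove of AT-rich DNA through AT-hooks and bend it, which opens chromatin for other factors. LIN28 proteins bind precursors of the let-7 microRNAs and block their maturation, and mature let-7 represses the mRNAs of HMGA2, LIN28B and the IGF2BP family. IGF2BP proteins bind, transport and stabilise mRNAs, including those of IGF2 and MYC. SND1 is a nuclease and tudor domain protein of transcription and RNA turnover.

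SND1, measured on a probe set that is also annotated to SND1-IT1, had log2 values of 5.88, 5.70 and 5.99 on the knockdown arrays, against 8.83, 8.60 and 8.80 on the vector control arrays. The groups did not overlap, and the knockdown arrays lay lower. Detection calls were not used here. The highest mean of the 23 background control probe sets, a log2 value of 6.28, served instead as the background level. The median of these 23 means was 3.11, so the level is a high one, and genes below it can still differ between groups. Where 1 group lay at or below it, the fold was taken against that level as a lower bound, and for genes with both groups at or below it only the log2 difference is given. Of 10 measured ovarian and epithelial markers, 9 lay above that level in at least 1 group, and WT1, named after its values were seen, lay below it in both. Of 5 measured leukocyte markers 4 lay within the background range, the exception, named after its values were seen, being the lysosomal gene CD68, and 0 of the 5 passed the limma test, or an unadjusted p under 0.05. All 8 endothelial and fibroblast markers lay within that range. Of these, LUM was higher in knockdown cells (log2 difference 1.85 ± 0.05 SE, limma adjusted p = 8.31e-07) and COL1A1 lower (log2 difference -0.44, limma adjusted p = 0.0037). Of all genes 32% passed the limma test.

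HMGA2, HMGA1 and IGF2BP3 rose after SND1 knockdown, IGF2BP2 fell slightly, and LIN28A, LIN28B and IGF2BP1 stayed within the background range and did not pass the test. Of the 7 genes 3 were thus higher and 1 lower at an adjusted p of at most 0.05 in limma, where 15.9% of all genes were higher, 16.1% lower and 32% changed in either direction. The groups did not overlap for 5 of the 7, against 43.6% of all genes. Of these, 3 lay higher and 2 lower in knockdown cells, where 21.7% and 21.9% of all genes did. By size of change in either direction IGF2BP3 ranked 649 among the 22413 genes, HMGA1 1807 and IGF2BP2 8732. The middle range of all genes, from the 5th to the 95th percentile, ran from -0.63 to 0.56 on the log2 scale, around a median of 0.003.

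**Figure D1:**
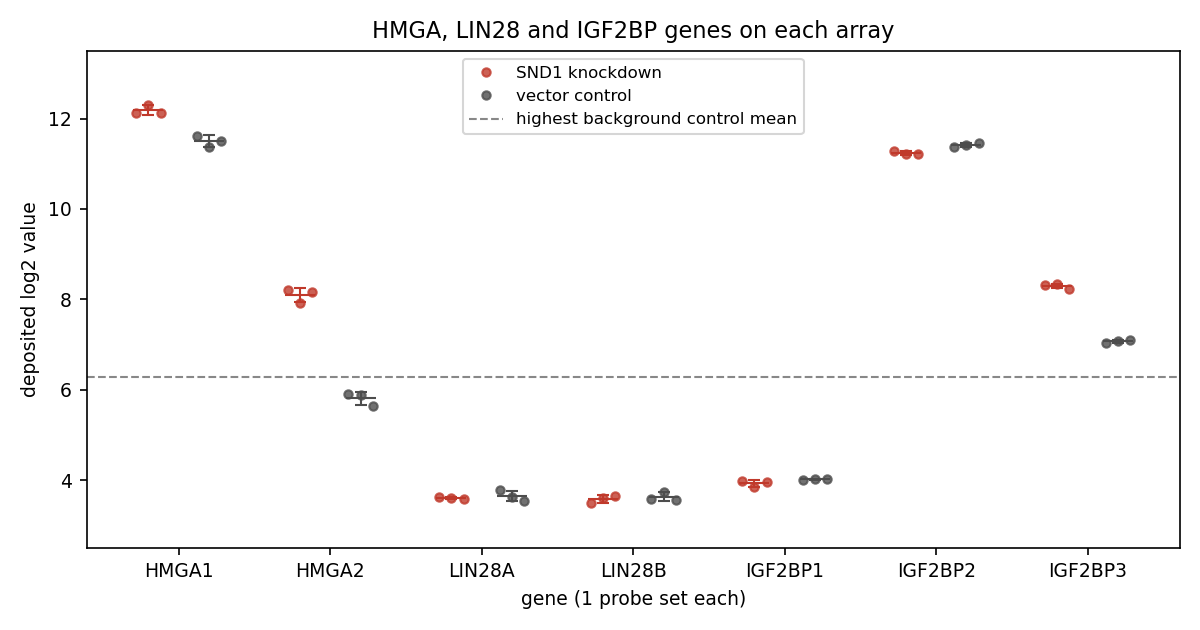
Deposited log2 value (vertical axis) of the 7 genes on each array, with SND1 knockdown left of vector control for each gene. Points are arrays, bars are the mean and SD of 3 arrays, and the dashed line is the highest background control mean, 6.28. HMGA2 lies above that line only in knockdown cells, while LIN28A, LIN28B and IGF2BP1 lie below it in both groups.

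HMGA2, the embryonic member of the HMGA family and a regulator of mesenchymal genes and growth, showed the largest change of the 7. Its log2 values were 8.21, 7.92 and 8.17 on the knockdown arrays, against 5.90, 5.89 and 5.65 on the vector control arrays. Every knockdown array was above every control array, and the gap between the groups exceeded the spread within either. The means were 8.10 ± 0.16 in knockdown cells and 5.81 ± 0.14 in controls (SD, n = 3 each). HMGA2 was therefore at least 3.53-fold higher, with a log2 difference of 2.29 ± 0.10 (SE, limma adjusted p = 5.17e-06) and a 95% confidence interval of 2.05 to 2.53. The control values lay below the background level, so this difference is that of the deposited values and the measured rise is a lower bound, 1.82 on the log2 scale.

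HMGA1, the more widely expressed member and a chromatin protein of proliferating cells, rose less. Its log2 values were 12.13, 12.31 and 12.11 on the knockdown arrays, against 11.62, 11.37 and 11.50 on the vector control arrays. All knockdown arrays lay above all control arrays. The means were 12.18 ± 0.11 in knockdown cells and 11.50 ± 0.13 in controls (SD, n = 3 each), a 1.61-fold rise with a log2 difference of 0.69 ± 0.08 (SE, limma adjusted p = 0.000681). The only probe set for HMGA1 is also annotated to the pseudogene HMGA1P8, so the value cannot be given to HMGA1 mRNA alone. Near-identical processed pseudogenes had probe sets of their own: HMGA1P1 was 1.69-fold higher (log2 difference 0.76, adjusted p = 0.000306), and HMGA1P4 was higher by 0.45 within the background range. HMGA1P7, named after its values were seen, differed by 0.030 within that range (adjusted p = 0.77). Whether these probe sets picked up HMGA1 mRNA was not tested.

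The log2 difference between HMGA2 and HMGA1 within an array asks whether the pair changed unequally. It was -3.92, -4.39 and -3.94 on the knockdown arrays, against -5.73, -5.48 and -5.86 on the vector control arrays. The groups did not overlap, and the change was 1.61 in the deposited values. With HMGA2 raised to the background level where it lay below it, a setting chosen after seeing the data, the change was at least 1.14. The exact 2-sided permutation test gave p = 0.1 both ways, the smallest that 3 arrays against 3 allow, and for the deposited values 0.167 when adjusted over the 5 pairs of related genes compared. Among knockdown arrays, the second had both the lowest HMGA2 and the highest HMGA1 value.

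**Figure D2:**
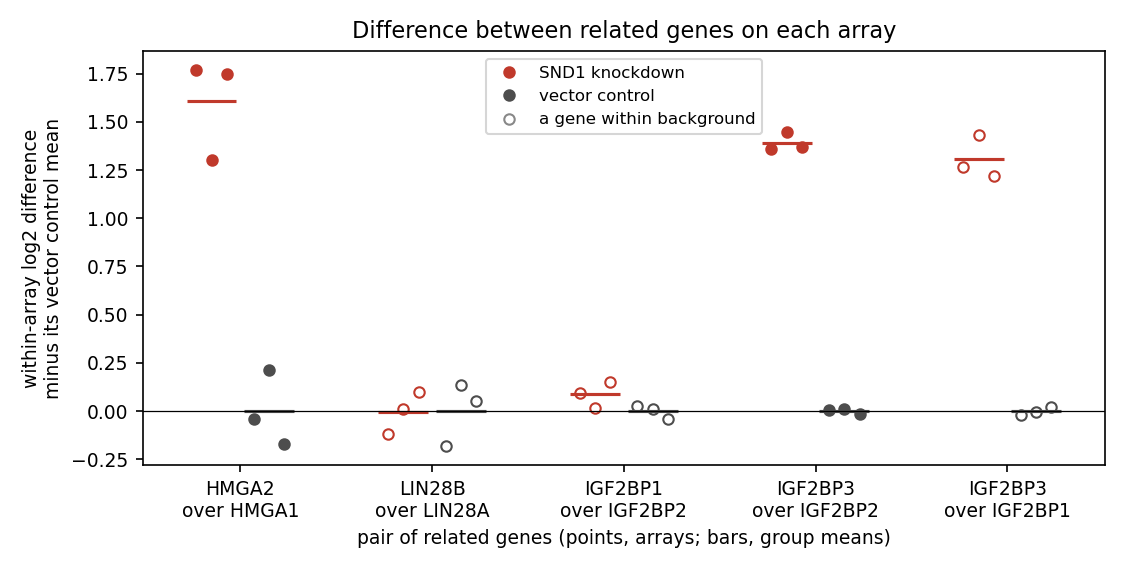
Within-array log2 difference between related genes, minus its vector control mean (vertical axis), for 5 pairs, with SND1 knockdown left of vector control. Points are arrays and bars are group means, and open points mark the 3 pairs with a gene within the background range in both groups, whose changes are not read. IGF2BP3 over IGF2BP2 changed by 1.39, and HMGA2 over HMGA1 by at least 1.14 (1.61 in the deposited values plotted, with HMGA2 below background in controls).

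RPSAP52, a transcribed pseudogene that overlaps the start of HMGA2 on the opposite strand, had log2 values of 6.70, 6.75 and 6.49 on the knockdown arrays, against 6.27, 6.16 and 5.75 on the vector control arrays. The groups did not overlap, and it rose by 0.59 ± 0.14 on the log2 scale (SE, adjusted p = 0.0167), at least 1.29-fold. The 20 expressed genes nearest to HMGA2 on chromosome 12, 10 on each side and RPSAP52 among them, had a median log2 difference of 0.28. Of these 20, 11 were higher and 2 lower, where 15.9% of all genes were higher and 16.1% lower. Expressed here means a mean over the 6 arrays above 4.16, the median of the whole table, which is below the background level. A limma fit of only the 13944 genes past this cut called 3658 higher and 3562 lower. MSRB3, a methionine sulfoxide reductase gene, named after its values were seen, lies among these neighbours and was at least 2.86-fold lower (adjusted p = 1.6e-05). The part of these neighbours in the HMGA2 result was not tested.

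The promoter windows of HMGA1 and IGF2BP3 are shown because both genes rose and RefSeq (GRCh38.p14) holds a window for them. Each runs from 250 bases before to 50 after the gene start, 5′ to 3′ on the gene's strand. Both strands were searched for CACGTG (the MYC and MAX E-box), CAGGTG (the Snail and ZEB E-box), GGGCGG (the SP1 box), TGANTCA (AP-1) and GGAATG (TEAD), and capitals mark the matches. Neither printed window holds more than 1 kind of motif, so matches of different motifs do not overlap. The HMGA1 window is the first of 2, chr6:34236623-34236922 on the plus strand, and the IGF2BP3 window is chr7:23470442-23470741 on the minus strand.
HMGA1 promoter: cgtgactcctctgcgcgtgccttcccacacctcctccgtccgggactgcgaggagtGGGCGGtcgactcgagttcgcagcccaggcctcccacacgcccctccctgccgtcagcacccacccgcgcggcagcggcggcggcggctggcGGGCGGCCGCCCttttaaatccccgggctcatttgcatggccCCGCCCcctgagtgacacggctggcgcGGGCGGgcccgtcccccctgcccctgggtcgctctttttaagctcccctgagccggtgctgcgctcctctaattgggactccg
IGF2BP3 promoter: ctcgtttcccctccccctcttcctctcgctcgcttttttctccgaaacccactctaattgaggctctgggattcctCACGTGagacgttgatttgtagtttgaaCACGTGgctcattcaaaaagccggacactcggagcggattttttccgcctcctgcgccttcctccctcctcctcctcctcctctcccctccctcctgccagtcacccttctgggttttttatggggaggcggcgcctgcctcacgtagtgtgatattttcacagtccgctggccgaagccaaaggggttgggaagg
The HMGA1 window held 5 GGGCGG boxes and no other of these motifs, at a GC content of 72%. The IGF2BP3 window held 2 CACGTG boxes and no other of these motifs, at a GC content of 56.3%. Of 35116 promoter windows of the same length, 45% hold GGGCGG and 7.26% hold CACGTG. The second HMGA1 window held 1 CAGGTG, which 20.6% of windows hold. The first windows of IGF2BP2 and LIN28B held 7 and 2 GGGCGG boxes. The second LIN28B window held 1 CACGTG, and the second IGF2BP2 window 1 TGANTCA and 1 GGAATG, which 7.71% and 14% of windows hold. A match is a description of these letters only.

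LIN28A, which marks pluripotent cells, had log2 values of 3.63, 3.61 and 3.57 on the knockdown arrays, against 3.77, 3.63 and 3.54 on the vector control arrays. The groups overlapped, with a log2 difference of -0.043 ± 0.067 (SE, adjusted p = 0.711) and a 95% confidence interval of -0.20 to 0.12. LIN28B, the member more often switched on in carcinomas, had 3.49, 3.60 and 3.65 on the knockdown arrays, against 3.57, 3.74 and 3.57 on the vector control arrays. These groups overlapped as well, with a difference of -0.046 ± 0.070 (SE, adjusted p = 0.705) and an interval of -0.21 to 0.12. Both genes lay within the background range on all 6 arrays, so their signal cannot be told from background. Neither difference passed the test, and these intervals do not show that the mRNA is absent or unaltered.

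Of 6 measured pluripotent and germ cell markers, LIN28A among them, 5 lay within the background range. The exception was POU5F1, a core pluripotency factor named after its values were seen and measured on the brightest of its 7 probe sets. It averaged 6.62 ± 0.17 in knockdown cells and 6.39 ± 0.11 in controls (SD, n = 3 each). Both means were just above the background level, though vector control array 2, at 6.278, lay just below it. POU5F1 did not pass (difference 0.23, limma adjusted p = 0.127). NANOG was higher by 0.18 within the background range (adjusted p = 0.0387). The antisense transcript LIN28B-AS1, named after its values were seen, differed by 0.11 (adjusted p = 0.485). The 20 expressed genes nearest to LIN28B on chromosome 6 had a median of 0.14. Of these 8 were higher and 6 lower, where 15.9% of all genes were higher and 16.1% lower. Among only the 13944 genes past the cut for expressed genes, limma called 3658 higher and 3562 lower. The nearest expressed neighbour of LIN28B on 1 side, POPDC1, named after its values were seen, lay below background in knockdown cells and was at least 4.61-fold lower (limma adjusted p = 8.54e-07).

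The let-7 microRNAs are the substrates that LIN28 withholds from processing, and their mature sequences from RefSeq (GRCh38.p14) are shown for the precursors with a probe set. Capitals mark the seed, bases 2 to 8, which pairs with target mRNAs.
let-7a-5p: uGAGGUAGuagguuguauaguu
let-7c-5p: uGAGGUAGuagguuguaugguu
let-7d-5p: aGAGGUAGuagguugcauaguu
let-7e-5p: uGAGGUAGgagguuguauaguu
let-7f-5p: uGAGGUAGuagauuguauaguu
let-7g-5p: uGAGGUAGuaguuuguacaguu
let-7i-5p: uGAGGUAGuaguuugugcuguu
miR-98-5p: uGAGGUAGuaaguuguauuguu
These 8 mature forms share 1 seed, GAGGUAG, and therefore form 1 family.

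The array holds probe sets for 10 of the 12 hairpins of this family, and a probe set on a precursor does not measure the mature microRNA. Of the 10 hairpins 1 passed the test, where 32% of all genes passed in either direction. It was MIRLET7F2, whose log2 values were 3.40, 3.28 and 3.26 on the knockdown arrays, against 3.74, 3.81 and 3.52 on the vector control arrays. The groups did not overlap, and it was lower by 0.38 ± 0.09 (SE, adjusted p = 0.0131), within the background range. Its hairpin, chrX:53557192-53557274 on the minus strand, is shown with GGAG, the motif bound by the LIN28 zinc knuckles, in capitals.
let-7f-2 hairpin: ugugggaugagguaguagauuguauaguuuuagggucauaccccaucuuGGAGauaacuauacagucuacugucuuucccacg
GGAG occurs in 9 of the 12 hairpins, all 9 with a probe set, and in 43.4% of the 1562 human hairpins in the table.

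Of the 14 measured let-7 precursor and host transcripts 1 rose and 1 fell, where 15.9% of all genes rose and 16.1% fell. Their median log2 difference was 0.013 beside 0.003 over all genes, and 10 of the 14 lay within the background range. The riser was MIR99AHG, the host transcript of let-7c, higher by 0.48 within the background range (adjusted p = 0.0047). MIRLET7I and MIRLET7F1, named after their values were seen because both group means lay above background, did not pass. MIRLET7I had log2 values of 6.93, 7.96 and 7.29 on the knockdown arrays, against 7.93, 8.19 and 8.15 on the vector control arrays (difference -0.69 ± 0.24 SE, adjusted p = 0.0655). MIRLET7F1 differed by 0.26 ± 0.10 (SE, adjusted p = 0.113). The groups of both overlapped.

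Among 9 measured genes that process let-7 or work with LIN28, 4 were higher and 0 lower, with a median of 0.078, where 15.9% of all genes were higher and 16.1% lower. By unadjusted p under 0.05 in limma the lower count was likewise 0. DICER1, the RNase that cuts the precursor hairpin, had log2 values of 11.77, 11.72 and 11.64 on the knockdown arrays, against 10.97, 11.04 and 10.98 on the vector control arrays, 1.64-fold higher. TUT7, a uridylyl transferase that modifies let-7 precursors, was 1.24-fold higher (log2 difference 0.31, adjusted p = 0.0027). DIS3L2, the exonuclease that degrades uridylated precursors, was at least 1.25-fold higher (log2 difference 0.39, adjusted p = 0.000781). TUT1 rose by 0.16 within the background range (adjusted p = 0.0397). TUT4, the transferase that LIN28A recruits, named after its values were seen, differed by -0.0054 (adjusted p = 0.959).

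**Figure D3:**
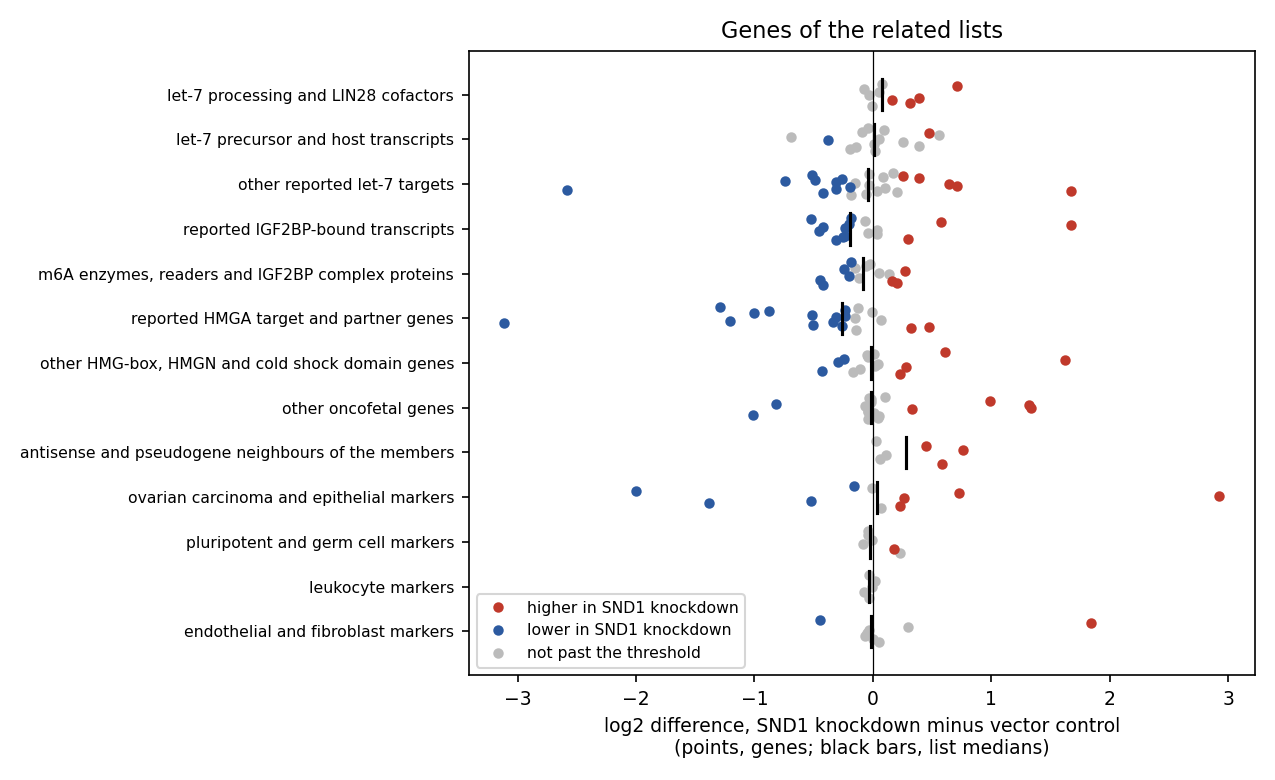
Log2 difference, SND1 knockdown minus vector control (horizontal axis), of the measured genes of 13 related lists (rows). Points are genes, coloured by whether they passed the test, and black bars are list medians. The lowest point is SNAI2 at -3.11 and the highest is EPCAM at 2.92, and list medians lie between -0.26 and 0.28.

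IGF2BP3, an mRNA-binding protein of fetal tissue that marks aggressive carcinomas, had log2 values of 8.31, 8.33 and 8.24 on the knockdown arrays, against 7.04, 7.07 and 7.10 on the vector control arrays. Every knockdown array was above every control array, and the spread within a group was small. The means were 8.29 ± 0.05 in knockdown cells and 7.07 ± 0.03 in controls (SD, n = 3 each). IGF2BP3 was 2.33-fold higher, a log2 difference of 1.22 ± 0.05 (SE, limma adjusted p = 3.07e-06) with a 95% confidence interval of 1.11 to 1.33. Its 20 nearest expressed neighbours on chromosome 7 had a median of -0.096. Of these 6 were higher and 6 lower, where 15.9% of all genes were higher and 16.1% lower. Among only the 13944 genes past the cut for expressed genes, limma called 3658 higher and 3562 lower.

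IGF2BP2, the member that stays active in adult tissue, moved slightly the other way. Its log2 values were 11.29, 11.23 and 11.21 on the knockdown arrays, against 11.38, 11.41 and 11.46 on the vector control arrays. All knockdown arrays lay below all control arrays. IGF2BP2 was 1.13-fold lower, with means of 11.24 ± 0.04 in knockdown cells and 11.41 ± 0.04 in controls (SD, n = 3 each), a log2 difference of -0.17 ± 0.05 (SE, limma adjusted p = 0.0311). The call was lost without knockdown array 2 (adjusted p = 0.0808), knockdown array 3 (0.0907), or vector control array 1 (0.0534), 2 (0.0806) or 3 (0.109), and with the replicate number as a block (0.0959), in a range of 0.0102 to 0.109 over 12 alternatives. The antisense transcript IGF2BP2-AS1, named after its values were seen, differed by 0.057 within the background range (adjusted p = 0.649).

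IGF2BP1, which protects MYC mRNA from decay, had log2 values of 3.99, 3.84 and 3.97 on the knockdown arrays, against 4.01, 4.02 and 4.02 on the vector control arrays. The knockdown arrays were all lower, by a narrow margin within the background range. The log2 difference was -0.085 ± 0.053 (SE, adjusted p = 0.300), with a 95% confidence interval of -0.21 to 0.040, which does not pass the threshold. Its 20 nearest expressed neighbours on chromosome 17 had a median of -0.20. Of these 2 were higher and 8 lower, where 15.9% of all genes were higher and 16.1% lower. Among only the 13944 genes past the cut for expressed genes, limma called 3658 higher and 3562 lower.

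The within-array log2 difference of IGF2BP3 over IGF2BP2 was -2.98, -2.90 and -2.98 on the knockdown arrays, against -4.34, -4.34 and -4.36 on the vector control arrays, a change of 1.39. The groups did not overlap, with an exact 2-sided permutation p = 0.1, the smallest possible, and 0.167 when adjusted over the 5 pairs. IGF2BP3 and IGF2BP2 thus differed in their change by more than the replicate spread, though a test over 3 arrays against 3 cannot pass 0.05. Nothing is read from the 3 pairs that include IGF2BP1, LIN28A or LIN28B, since both groups of these genes were within background.

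**Figure D4:**
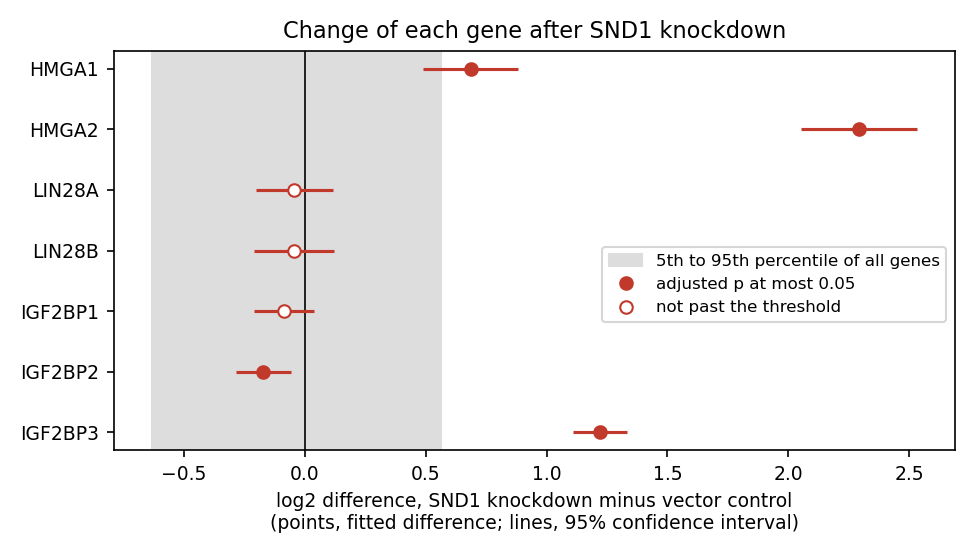
Log2 difference, SND1 knockdown minus vector control (horizontal axis), of the 7 genes. Points are fitted differences, lines are 95% confidence intervals from limma and the grey band spans -0.63 to 0.56, the 5th to 95th percentile of all genes. HMGA2 at 2.29, IGF2BP3 at 1.22 and HMGA1 at 0.69 lie beyond the band.

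Transcripts reported to be bound by IGF2BP proteins were mostly lower. Of 16 measured 9 fell and 3 rose, with a median log2 difference of -0.19, where 16.1% of all genes fell and 15.9% rose. Of the 9, 2 lay within the background range. Among the 16, 11 lay above the background level in at least 1 group, and the shares over all genes include many dim ones. The limma fit of only the 13944 genes with a mean above 4.16 called 3658 higher and 3562 lower. CCND1, the cyclin of G1 entry, was 3.2-fold higher (log2 difference 1.68 ± 0.12 SE, adjusted p = 4.36e-05) and CCNG1 was 1.49-fold higher. CTNNB1, encoding beta-catenin, was 1.37-fold lower and LAMB2, encoding a laminin chain, 1.34-fold lower. MYC, named after its values were seen, had log2 values of 8.15, 8.20 and 8.07 on the knockdown arrays, against 8.49, 8.44 and 8.42 on the vector control arrays, and was 1.24-fold lower (adjusted p = 0.0030).

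IGF2BP proteins read N6-methyladenosine (m6A), a methyl mark on mRNA. Of 14 measured m6A enzymes, readers and IGF2BP complex proteins 3 rose and 5 fell, with a median of -0.086, against 15.9% and 16.1% of all genes. All 14 lay above the background level, and the shares over all genes include many dim ones. A limma fit of only the 13944 genes with a mean above 4.16 called 3658 higher and 3562 lower. METTL3, the catalytic subunit of the m6A writer, was 1.34-fold lower (adjusted p = 0.0047), and FTO, a demethylase, was 1.36-fold lower (adjusted p = 0.0037). SYNCRIP, an RNA-binding partner, was 1.21-fold higher (adjusted p = 0.0034), and YBX1 was 1.19-fold lower (adjusted p = 0.0151).

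Other reported let-7 targets changed in both directions. Of 24 measured 5 rose and 9 fell, 1 and 2 of them within the background range, with a median of -0.045, where 15.9% of all genes rose and 16.1% fell. CDK6, a G1 kinase, was at least 4.04-fold lower (log2 difference -2.59 ± 0.05 SE, adjusted p = 2.02e-07), while CCND1 and DICER1 rose as given above. RRM2, a subunit of ribonucleotide reductase, was 1.56-fold higher (log2 difference 0.64, adjusted p = 8.58e-05). CCND1 is in both this list and that of IGF2BP-bound transcripts, and DICER1 is in both this list and that of let-7 processing.

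Genes reported as targets or partners of HMGA proteins were mostly lower, 12 of 19, with 2 higher and a median of -0.26, where 16.1% of all genes were lower and 15.9% higher. Of the 12, 5 were within background in knockdown and control cells alike. Among the 19, 12 lay above the background level in at least 1 group, and the shares over all genes include many dim ones. The limma fit of only the 13944 genes with a mean above 4.16 called 3658 higher and 3562 lower. The list holds targets and partners together, so these counts are not read as an effect of HMGA proteins. SNAI2, a repressor of E-cadherin, was at least 7.07-fold lower (log2 difference -3.11). TGFBR2, a TGF-beta receptor, was 2.31-fold lower (log2 difference -1.21 ± 0.09 SE, adjusted p = 4.74e-05), IGFBP3 was 2.01-fold lower and ERCC1, a DNA repair nuclease subunit, 1.835-fold lower. The 2 that rose, named after their values were seen, were RB1 (1.39-fold) and E2F1 (1.25-fold).

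**Figure D5:**
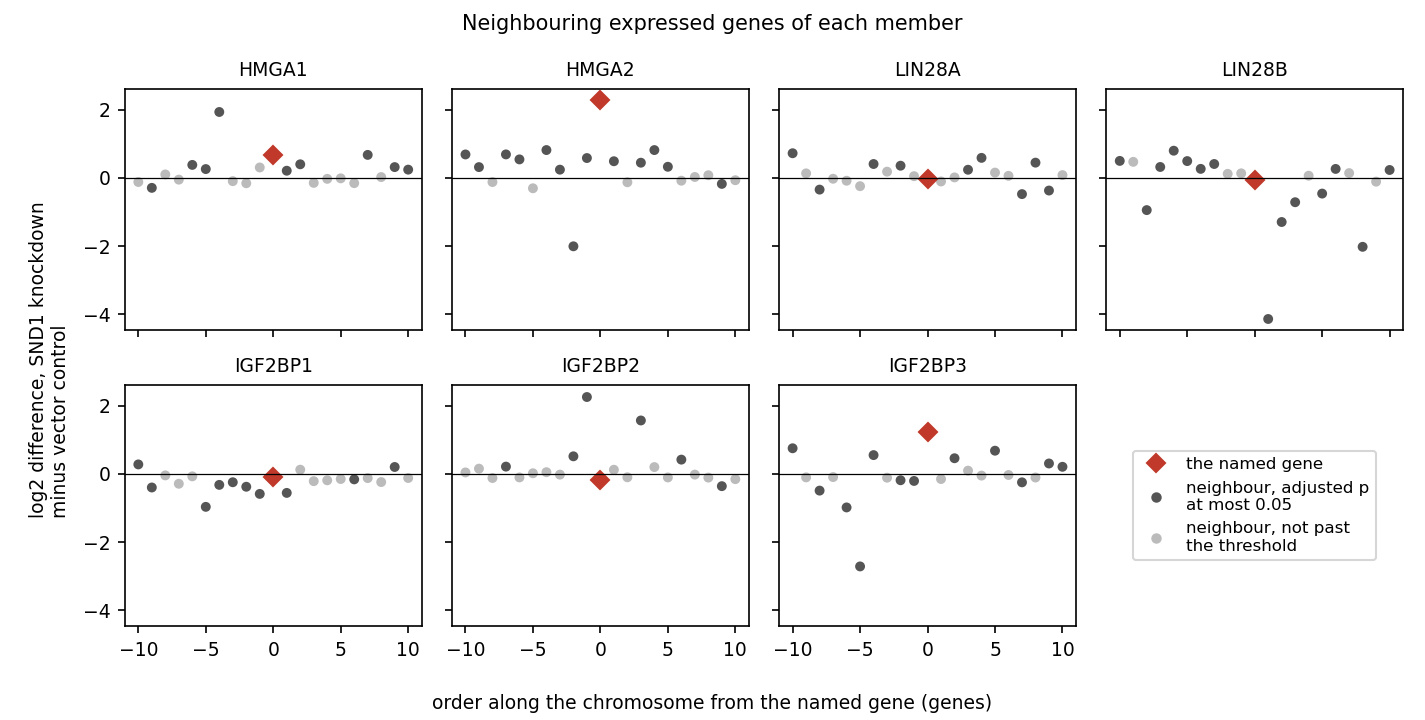
Log2 difference, SND1 knockdown minus vector control (vertical axis), of each of the 7 genes and its 10 nearest expressed genes on either side, in order along the chromosome (horizontal axis, no distances). Diamonds are the 7 genes, dark points neighbours that passed the test and pale points neighbours that did not. Around HMGA2 11 of 20 neighbours were higher and 2 lower, and around IGF2BP3 6 were higher and 6 lower. Of all genes 15.9% were higher and 16.1% lower. Among only the 13944 genes past the cut for expressed genes, limma called 3658 higher and 3562 lower.

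The genes whose pattern lay closest to each changed member were found by the root mean square difference over the 6 arrays, after subtracting each gene's own control mean. Closest to HMGA2 were PKHD1 (0.126 log2 units, within the background range), DEPTOR (0.141) and CAMK2N1 (0.154), a measure that uses HMGA2 control values below background. Closest to IGF2BP3 were EPS8 (0.0241), GDPD5 (0.0478) and SPART (0.0511). For HMGA1 they were APOOL (0.0286), ALG10 (0.0306) and THUMPD1 (0.0410), and for IGF2BP2 they were CBLL1 (0.0157), COPZ2 (0.0168) and FAM117A (0.0183), the last 2 within the background range. With 6 arrays in 2 groups, this measure mainly ranks genes by the size of their difference between groups.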

How the data were processed

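RNA of 3 SND1 knockdown and 3 vector control samples was hybridised to single-colour Affymetrix arrays. The deposited log2 values are 1 per probe set and array, made with RMA (no version named), per the submitters' processing notes. The variant of RMA and the array's genome build are not given in the sources used here. Array medians ran from 4.13 to 4.19, and 4457 values lay above 16, more than a 16-bit scan can give, so fold sizes depend on an unstated scale. The number of arrays limits the precision. Arrays of a group correlated across genes at 0.9981 to 0.9987 and arrays of different groups at 0.984 to 0.9861.

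Of 70523 probe sets 23781 carried 1 symbol, 1543 several and 45199 none. Entrez identifiers matched 21497 to RefSeq, and 306 symbols were replaced, through that match or, without one, through a unique synonym. Those with several symbols were left out, except those of SND1 and HMGA1, kept as the target and a member. Where a gene had more than 1 probe set (528 genes), the brightest stood for it. The 22413 genes were fitted with lmFit and eBayes (limma 3.58.1, R 4.3.3), with all genes kept and group as the only term. Adjusted p (2-sided, Benjamini-Hochberg) took in every gene of the fit. Of these steps only the limma fit was tested on simulated data. In that test a far smaller share of genes was shifted than the 32% called here. Exact permutation tests used scipy 1.17.1.

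Members and the 13 lists were chosen with earlier results of these data known. The shares of all genes set beside the lists include many dim genes. Named genes are the 7 members, SND1, up to 4 changed genes of each list by smallest adjusted p, and the 3 genes most like each changed member. Others are marked in the text as named after their values were seen. Same-numbered arrays of the groups did not deviate together (correlations of -0.020, -0.036 and -0.061), so numbers were not taken as pairs. The label of 1 knockdown array carries a further number of unknown meaning.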

Additional observations from a re-analysis of the deposited data

How the results depend on the processing

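HMGA2, HMGA1 and IGF2BP3 kept their direction and their call under all 12 alternatives, with log2 differences of 2.21 to 2.38, 0.62 to 0.75 and 1.18 to 1.25. The alternatives were renewed quantile normalization, median centring, a filter on dim genes, the mean of a gene's probe sets, another variance model, the replicate number as a block and leaving out each array. As each member has 1 probe set, the filter, the probe set mean, the variance model and the block cannot move its log2 difference. These settings can alter only the adjusted p, so the ranges of the differences come from the other alternatives. With the replicate number as a block, 6233 genes were called instead of 7167, and IGF2BP2 (-0.17, adjusted p = 0.0959) lost its call, while no other of the 7 genes changed its call. Leaving out 1 array moved IGF2BP2 between -0.20 and -0.15 (adjusted p 0.0305 to 0.109), LIN28A between -0.098 and 0.020, LIN28B between -0.083 and 0.012, IGF2BP1 between -0.11 and -0.041 and LIN28B over LIN28A between -0.095 and 0.064. LIN28A turned positive without the first vector control array, and LIN28B without the second, in both cases without a call. LIN28B over LIN28A, both within the background range, turned positive without knockdown array 1 or vector control array 2 or 3. Their filtered values and that of IGF2BP1 could not be had, since these 3 genes lie below the filter. The number of genes called was 5879 to 6886 with 1 array left out, where fewer arrays enter the fit. The cause of the other changes was not tested. Signals near background limit what can be said of LIN28A, LIN28B and IGF2BP1.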

Other observations

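Other oncofetal genes outside the 3 families were mostly within the background range, 14 of 17 measured, and 4 rose and 2 fell, with a median log2 difference of -0.013, where 15.9% of all genes rose and 16.1% fell. ROR1, a receptor of fetal tissue, had log2 values of 10.17, 10.40 and 10.22 on the knockdown arrays, against 9.17, 8.74 and 8.89 on the vector control arrays, and was 2.52-fold higher (limma adjusted p = 0.000126). PLAG1, an embryonic zinc finger factor, rose by 1.31 ± 0.11 (SE) within the background range, and ALPP, the placental alkaline phosphatase, rose by 0.99 within it. PLAGL1, an imprinted zinc finger gene, was 1.77-fold lower (adjusted p = 9.86e-05).

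Of 14 measured HMG-box, HMGN and cold shock domain genes 4 rose and 3 fell, where 15.9% of all genes rose and 16.1% fell. Their median was -0.018, and 12 of the 14 lay above the background level in at least 1 group. HMGN5, a nucleosome-binding protein, was 3.09-fold higher (log2 difference 1.63 ± 0.08 SE, adjusted p = 1.13e-05), CARHSP1 was 1.52-fold higher and HMGN1 1.22-fold higher, while HMGB3 was 1.35-fold lower. Among the ovarian and epithelial markers 4 of 10 rose and 4 fell, where 15.9% of all genes rose and 16.1% fell. EPCAM was 7.59-fold higher and MSLN 1.66-fold higher, while KRT8 was 2.61-fold lower and MUC16 at least 1.19-fold lower.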
